A study of Mus musculus with 6 samples.

Results

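The small leucine-rich proteoglycans are a family of secreted proteins built from a short chain of leucine-rich repeats, most of which carry sugar chains of chondroitin, dermatan or keratan sulfate. They bind fibrillar collagens and set how fibrils grow and pack, and several also hold or present growth factors of the TGF-beta and BMP families. Bone matrix is known to be rich in biglycan and decorin, and osteomodulin was isolated from bone matrix.

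The family was taken as the 10 genes Omd, Ogn, Aspn, Dcn, Bgn, Lum, Fmod, Prelp, Kera and Podn, and 9 of them were among the 29616 genes of the deposited table. Keratocan (Kera) was not analysed here. The family was selected because Omd, Ogn and Aspn were among the largest decreases with dexamethasone in these same libraries, so the differences of the members between the groups are given as a description, without a test.

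RNA-sequencing was performed on bone cells of C57BL/6 mice (C57BL/6J in the study's methods), with 3 control and 3 dexamethasone libraries. In the study's methods, dexamethasone, a synthetic glucocorticoid, was given every day at 0.08 µg per gram of body weight, starting at 8 weeks of age and lasting 4 weeks, and Osteocalcin-positive cells were isolated from bones freed of marrow. The study names saline as the control of this dexamethasone model, and it does not say so separately for the sequenced cells. The series calls the 3 libraries of a group biological replicates, but no source says how many mice gave each library, so p-values measure the spread between libraries only.

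The 6 libraries held 72596611 to 89910728 reads counted in the genes of the table, recovered from the normalized counts as whole reads. Bglap, which encodes the Osteocalcin used for the isolation, was at 98.2 to 122 normalized counts in controls and at 9.54 to 15.1 with dexamethasone. Bglap2, also among the osteoblast markers, was at 300 to 339 in controls and at 29.6 to 33.7 with dexamethasone. Of 10 osteoblast markers, 7 fell and 1 rose past 2 cut-offs, an adjusted p under 0.05 and a log2 fold change of 1. The transcription factor genes Runx2 and Sp7 were at log2 fold changes of -1.75 and -1.86, and Spp1 (osteopontin) rose by 5.25. The 6 tested osteocyte markers moved both ways, with Dmp1 rising by 7.16, Irx5 at -3.29 and Pdpn at 0.68, the last under the fold cut-off. The summed level of 9 tendon and fibroblast markers lay between 2704 and 3122 normalized counts in controls and between 1702 and 1791 with dexamethasone, with Scx at -2.99, Tnxb at -1.35 and Mkx at 0.44, and with Tnmd and Thbs4 not analysed here. The sum of 10 chondrocyte markers lay between 7085 and 7528 in controls and between 22731 and 25555 with dexamethasone. It was made up mainly of Sox9, which rose by 1.92, and Col2a1, which rose by 1.90, while Hapln1 was at -1.42, Col11a2 at -0.67, and 4 markers were below 10 normalized counts in every library. The sum of 8 smooth muscle and mural markers, between 143627 and 151321 in controls and between 13597 and 14577 with dexamethasone, was nearly all Acta2, which was at 140695 to 148313 in controls. Acta2 fell by 3.54 and Notch3 by 1.27, while Des was at 0.17. The blood cell markers summed to 1782 to 1789 normalized counts in controls and to 1916 to 2146 with dexamethasone, a nearly level sum in which Cd53 rose by 4.11 and Itgb2 by 3.20, Lyz2 fell 2.84-fold and S100a9 was at 0.09, with Ptprc at most at 5.81 normalized counts in any library. Endothelial markers summed to 49.6 to 70.5 against 84.9 to 94.8, with Esam rising by 1.20, Pecam1 at 0.74, Egfl7 at 0.12 and Cdh5 at most at 2.18 normalized counts. Tek, the other tested endothelial marker, was at -0.75 with overlapping groups, and 4 of these markers were below 10 normalized counts in every library. Skeletal muscle markers summed to 63.3 to 81.2 against 58.9 to 73.5, with Acta1 at -1.56, Mylpf at 0.33 and Tnnt3 at 0.82. Adipocyte markers summed to 227 to 280 against 167 to 179, nearly all of it Plin4, which was at 216 to 270 in controls and had a value of -0.72. Cfd went the other way, from at most 3.91 normalized counts in controls to 15.3 to 18.1 with dexamethasone. Of the 6 adipocyte markers, 4 were below 10 in every library. The part of these cell types in the values below was not tested.

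The 3 members with the deepest decreases lie side by side on chromosome 13 as Aspn, Omd, Ogn, after the distant leucine-rich repeat relative Ecm2. The 250 bases before their start sites are shown because they are the stretch next to which these neighbouring genes begin, and biglycan (Bgn), the member whose level hardly differed, is shown for comparison. Sequences are from RefSeq on GRCm38.p6, all on the plus strand, at chr13:49504560-49504809 for Ecm2, chr13:49544193-49544442 for Aspn, chr13:49582212-49582461 for Omd, chr13:49607765-49608014 for Ogn and chrX:73483351-73483600 for Bgn. The deposited counts were made on GRCm39, so these positions do not apply to them. Capitals mark TATAAA, the RUNX motif TGTGGT and the glucocorticoid receptor hexamer AGAACA, on either strand.
Ecm2: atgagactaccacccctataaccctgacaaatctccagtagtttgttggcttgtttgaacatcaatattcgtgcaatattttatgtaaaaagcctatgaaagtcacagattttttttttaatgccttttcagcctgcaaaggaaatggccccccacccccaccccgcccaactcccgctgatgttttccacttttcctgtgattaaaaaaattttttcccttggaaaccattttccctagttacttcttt
Aspn: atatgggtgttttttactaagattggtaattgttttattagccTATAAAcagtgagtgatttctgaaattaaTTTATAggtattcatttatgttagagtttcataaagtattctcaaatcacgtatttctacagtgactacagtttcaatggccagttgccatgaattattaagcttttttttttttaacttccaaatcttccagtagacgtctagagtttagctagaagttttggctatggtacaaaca
Omd: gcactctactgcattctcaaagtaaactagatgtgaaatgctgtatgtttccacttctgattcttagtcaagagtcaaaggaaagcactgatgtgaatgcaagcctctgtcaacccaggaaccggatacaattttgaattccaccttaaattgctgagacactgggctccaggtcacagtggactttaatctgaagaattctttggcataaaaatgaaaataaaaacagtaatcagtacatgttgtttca
Ogn: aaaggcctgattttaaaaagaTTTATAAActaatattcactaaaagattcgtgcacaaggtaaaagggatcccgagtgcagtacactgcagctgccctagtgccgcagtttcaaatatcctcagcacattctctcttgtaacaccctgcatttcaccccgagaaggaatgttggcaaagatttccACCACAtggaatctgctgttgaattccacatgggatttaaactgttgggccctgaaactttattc
Bgn: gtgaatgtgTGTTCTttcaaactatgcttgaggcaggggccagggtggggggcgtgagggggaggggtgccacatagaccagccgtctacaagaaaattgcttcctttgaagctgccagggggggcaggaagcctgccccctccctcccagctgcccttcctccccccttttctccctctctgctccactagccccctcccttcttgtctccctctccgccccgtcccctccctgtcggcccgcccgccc

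The Aspn window held TATAAA at -207 to -202 and, on the other strand, at -178 to -173 from the start site, a motif found in 12.4% of the 32851 RefSeq promoters. The Ogn window held overlapping TATAAA matches on both strands between -229 and -222, and TGTGGT on the minus strand at -65 to -60, which 14.0% of promoters hold. Ogn also held the TEAD motif GGAATG at -86 to -81, found in 12.6% of promoters. None of the motifs searched was found in the Omd window, nor in those of Fmod and Prelp. The Bgn window held AGAACA on the minus strand at -241 to -236, as do 16.1% of promoters. It also held 3 matches to the GC box GGGCGG, found in 32.7%, the last 2 of which overlap. The window of Optc, a relative beside Prelp, held AGAACA on the minus strand at -159 to -154, -29 to -24 and -7 to -2. Of the Podn windows, that of 1 start site held 2 GC boxes. The Ecm2 window held a GC box on the minus strand at -87 to -82. The full palindrome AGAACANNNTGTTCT, which contains that hexamer, was in none of the members' windows and in 3 of all promoters, and neither TGANTCA (6.75% of promoters) nor TAATTA (4.84%) was found in a member. The GC content was 30.0% for Aspn, 38.4% for Omd, 42.0% for Ogn, 40% for Ecm2 and 64.4% for Bgn, against a median of 52.4% over all promoters. Dcn and Lum had no entry among the promoters, while 8 of the 10 members had one. These matches describe the letters in the windows and were not tested for binding.

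Aspn encodes asporin, a class I member with a run of aspartates that binds collagen and TGF-beta. Its normalized counts were 22224, 25174 and 24001 in controls and 200.3, 190.8 and 225.6 with dexamethasone. All control libraries lay far above all dexamethasone libraries. The level was 116-fold lower with dexamethasone, a log2 fold change of -6.85 ± 0.06 (SE, n = 3 per group), the rank 2 among the decreases of 17442 genes. In bulk RNA, fewer cells of a type and less RNA per cell cannot be told apart.

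Omd encodes osteomodulin, a keratan sulfate proteoglycan of mineralized tissue. Its counts in controls were 4980, 5586 and 5089, and with dexamethasone 65.8, 65.4 and 68.6. The dexamethasone values rest on 69, 60 and 59 reads and lay within a narrow range well below the controls. The log2 fold change was -6.27 ± 0.07 (SE).

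Ogn encodes osteoglycin, also called mimecan, a class III member. The control libraries held 38707, 43226 and 40968 normalized counts, and the dexamethasone libraries 789.8, 802.3 and 766.3. The groups did not overlap, and the log2 fold change was -5.70 ± 0.04 (SE). With dexamethasone, Aspn was left at 0.864% of its control level, Omd at 1.28% and Ogn at 1.92%. The 3 genes together made up 0.0899% ± 0.0033 (SD, n = 3) of the counted reads of a control library and 0.00126% ± 0.000027 of a dexamethasone library. Counting error was small beside this, with 95% Wilson intervals no wider than 0.000664 percentage points on either side.

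Podn encodes podocan, a class V member on chromosome 4. It was at 2969, 3157 and 3350 normalized counts in controls and at 433.1, 355.3 and 360.5 with dexamethasone. The groups were again apart, although dexamethasone replicate 1 was higher than the other two. The level was 8.25-fold lower, a log2 fold change of -3.04 ± 0.07 (SE).

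Lum and Dcn lie side by side on chromosome 10, followed by Kera. Lum encodes lumican, a keratan sulfate member known from the cornea, and had the lowest level per kilobase of the 9 in controls. It was at 646.3, 628.2 and 719.7 normalized counts in controls and at 103.0, 119.9 and 111.6 with dexamethasone. Every control library was above every dexamethasone library, and the log2 fold change was -2.57 ± 0.10 (SE). Dcn encodes decorin, which carries a single chondroitin or dermatan sulfate chain and coats collagen fibrils. Its counts were 3656, 3665 and 3805 in controls and 1252, 1363 and 1306 with dexamethasone. The groups did not overlap, and the level was 2.84-fold lower, a log2 fold change of -1.51 ± 0.04 (SE).

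Prelp and Fmod are neighbours on chromosome 1. Prelp encodes a class II member whose basic end binds heparan sulfate and anchors basement membranes to connective tissue. It was at 15288, 16842 and 16841 normalized counts in controls and at 4561, 4241 and 4205 with dexamethasone. The 2 groups were separate, with a log2 fold change of -1.91 ± 0.04 (SE). In the GENCODE M21 annotation 9.68% of the exon bases of Prelp also belong to an antisense gene, Gm15851, and whether the counting used the strand is not given in the sources used here. Fmod encodes fibromodulin, which binds collagen and is needed for fibril maturation in tendon. Its counts were 165421, 176205 and 177069 in controls and 76894, 71602 and 70520 with dexamethasone. The level was 2.37-fold lower without overlap of the groups, a log2 fold change of -1.24 ± 0.05 (SE).

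Bgn encodes biglycan, the class I relative of decorin, and lies on the X chromosome. The control libraries held 191052, 203757 and 200671 normalized counts and the dexamethasone libraries 197745, 187266 and 188565. These ranges overlapped, and the log2 fold change was -0.05 ± 0.05 (SE). With libraries brought to the same total it was -0.17, where the median of all genes moved to -0.11.

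**Figure D1:**
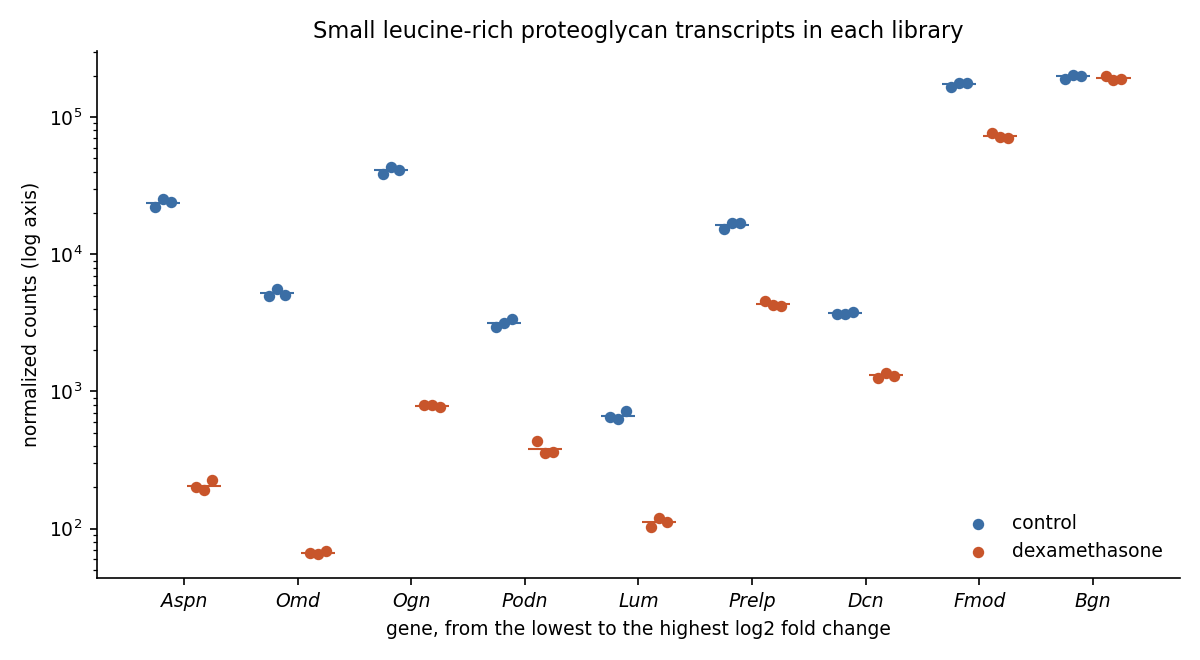
Normalized counts (log axis) of the 9 measured members in each of 3 control (blue) and 3 dexamethasone (orange) libraries, with a line at each group mean. The groups are apart for 8 genes, from Aspn (116-fold lower) to Fmod (2.37-fold lower), and overlap for Bgn.

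In all, the log2 fold change was below 0 in 9 of 9 members, against a median of 0.00 over all tested genes. Bgn was among them at -0.05 ± 0.05 (SE). The groups did not overlap, with dexamethasone lower, in 8 of 9 members, where 36.4% of all 17442 tested genes had such a pattern. The same 8 were past both cut-offs of the study's methods, an adjusted p under 0.05 and a log2 difference of 1 or more, where 22.3% of all genes were called, 10.6% as lower and 11.7% as higher. With libraries brought to the same total, 2163 genes were called as lower and 1775 as higher, against 1857 and 2037 here. The members were chosen on this contrast, so nothing is read from these counts. All 9 measured members passed the filter on low values, which kept genes averaging 10 or more normalized counts. The coefficient of variation between libraries of a group ranged from 2.25% to 11.4% among the members.

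Levels were set beside each other per kilobase of annotated exon. In controls, Fmod was highest with 52298 normalized counts per kilobase, followed by Bgn with 32545, Ogn with 15965, Aspn with 10110 and Prelp with 4516. Omd followed with 2320, then Podn with 740, Dcn with 635 and Lum with 272 normalized counts per kilobase. No 2 neighbours in this order overlapped in their ranges over the control libraries, the closest being Podn and Dcn, 1.16-fold apart. The order of the first 2 rests on the exon length used. Biglycan has 6099 annotated exon bases but a longest transcript of 2666, and with the longest transcript as the length, Bgn was above Fmod and the other 7 kept their places.

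With dexamethasone the order per kilobase was Bgn (31348), Fmod (22083), Prelp (1199), Ogn (306), Dcn (224), Podn (89.7), Aspn (87.3), Lum (45.6) and Omd (29.6). Podn and Aspn overlapped in their ranges there, and the others did not overlap with their neighbours. Ogn and Aspn, which made up 13.4% and 8.47% of the family's summed level per kilobase in controls, made up 0.553% and 0.158% with dexamethasone. The share of Bgn went from 27.3% to 56.6%, at a nearly equal level of its own, and that of Fmod from 43.8% to 39.9%. These shares also rest on the exon lengths. As shares of the family's counts, without a length, Bgn went from 42.7% to 70.4% and Fmod from 37.2% to 26.9%. As a share of all counted reads of a library, the 9 members together went from 0.598% ± 0.0129 (SD, n = 3) to 0.322% ± 0.0068. The 8 without Bgn went from 0.343% ± 0.0088 to 0.0953% ± 0.0032.

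**Figure D2:**
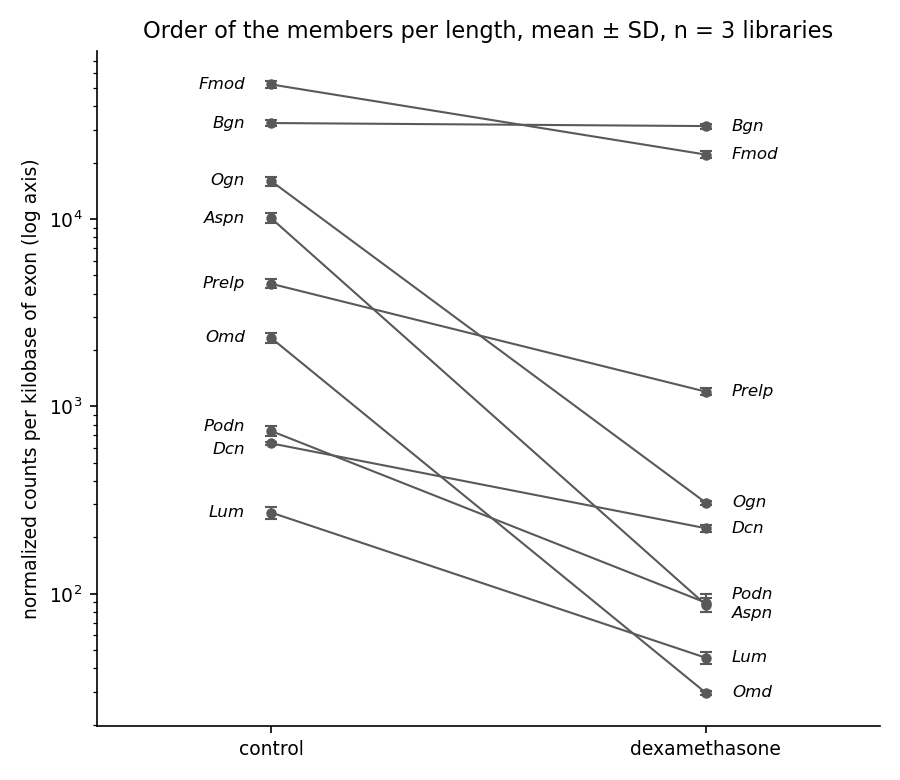
Mean normalized counts per kilobase of exon (log axis) of the 9 members in control and dexamethasone libraries, with SD over 3 libraries and a line joining the 2 means of a gene. Ogn (15965) and Aspn (10110) stood next after Fmod and Bgn in controls and at 306 and 87.3 with dexamethasone, while the line of Bgn is nearly flat.

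The genes beside the members were then examined, since several members sit in runs on a chromosome. Of the 30 nearest protein-coding genes, 3 on each side of a member or run of members, 25 were in the table and 16 were tested. Of these 16, 4 fell and 1 rose past both cut-offs, where 10.6% of all tested genes were called as lower and 11.7% as higher. Their median log2 fold change was -0.10 against 0.00 for all tested genes. Among the 4 that fell, Ecm2 and Optc are relatives of the family and are counted again with the other family genes below. On chromosome 13, Ecm2 (extracellular matrix protein 2), which lies just before Aspn, was at 324.1, 402.2 and 370.0 normalized counts in controls and at 88.7, 123.2 and 86.0 with dexamethasone. All controls were higher, and Ecm2 fell by 1.88 on the log2 scale (limma, adjusted p = 2.67e-12). In the annotation all 4 of these genes lie within the span of Cenpp, a centromere protein gene on the opposite strand, with no more than 7 exon bases shared (in Aspn). Cenpp had a log2 fold change of 0.61, and the genes after Ogn, Nol8 and Iars, had values of -0.12 and 0.42, all under the fold cut-off. These 3, Btg1 and Eea1 were named for their place, after their values were seen.

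On chromosome 1, opticin (Optc), a class III relative known from the vitreous of the eye, lies just before Prelp. It was at 79.0, 80.2 and 98.4 normalized counts in controls and at 5.72, 5.45 and 12.8 with dexamethasone, on 6, 5 and 11 reads in the latter. Optc fell by 3.36 on the log2 scale (limma, adjusted p = 3.78e-10). The calcium pump gene Atp2b4, before Optc, fell by 1.53, and the antiproliferative gene Btg2, after Fmod, fell by 1.01, a call that was lost at -0.998 without dexamethasone replicate 3. On chromosome 10, Btg1 and Eea1, before Dcn, had log2 fold changes of -0.29 and 0.58. Beside Podn, the glutamate transporter gene Slc1a7 rose by 2.15 from a low level, 17.3 ± 6.4 normalized counts in controls (SD, n = 3).

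**Figure D3:**
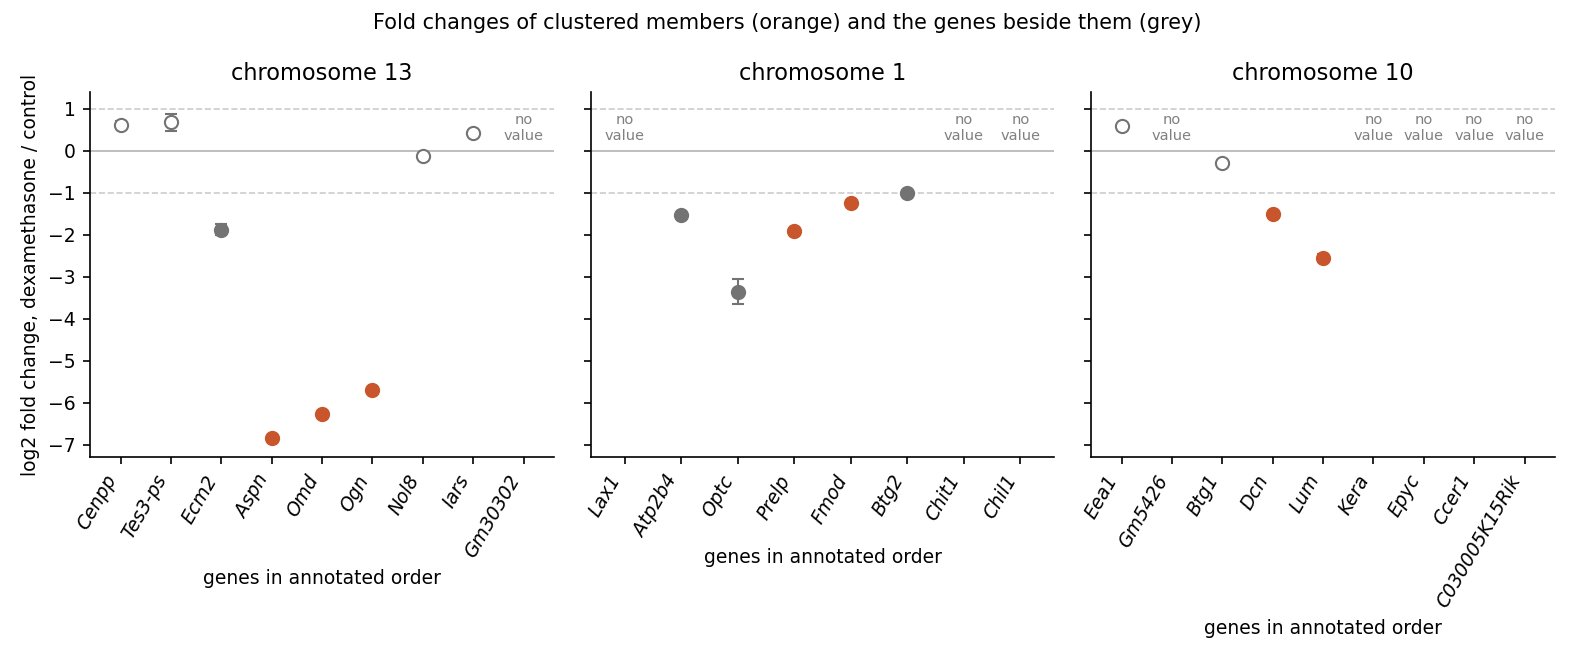
Log2 fold change (± SE) with dexamethasone of the clustered members (orange, given without a test) and of the genes beside them (grey, filled where past both cut-offs) in annotated order on chromosomes 13, 1 and 10. Dashed lines mark the fold cut-off, and "no value" marks genes not analysed here or under the filter. Ecm2, Aspn, Omd and Ogn lie together below -1 on chromosome 13, with Nol8 and Cenpp near 0 or above.

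The other genes of the wider family were tested in the same fit. Of 7 tested, Ecm2 and Optc fell and none rose past both cut-offs, with a median log2 fold change of -0.12. For this and the lists below, 10.6% of all tested genes passed both as lower and 11.7% as higher. Tsku (tsukushi, a BMP and Wnt inhibitor) was at 3027 ± 153 normalized counts in controls and 3811 ± 52.2 with dexamethasone (SD, n = 3), a log2 fold change of 0.33. Podnl1 (podocan-like) had a value of -0.74, Nyx (nyctalopin of the retina) 0.91, Chad (chondroadherin) 0.21 and Chadl (chondroadherin-like) -0.12, none past both cut-offs. Nyx reached the fold cut-off, at 1.00, without dexamethasone replicate 3. Epyc was not analysed here.

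Glycosaminoglycan chains of chondroitin, dermatan and heparan sulfate are built on a linkage sugar chain that xylosyltransferases start on the core protein. None of 6 tested linkage genes was called, although 5 had an adjusted p under 0.05 alone, as 72.5% of all genes did. Their median log2 fold change was 0.12. The xylosyltransferase Xylt2 had a value of 0.11, the xylose kinase Fam20b 0.08, both below 0 at the same total or with quantile normalization, and the xylose phosphatase Pxylp1 0.82.

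Among 14 tested enzymes that polymerize, sulfate or epimerize chondroitin and dermatan sulfate, 3 rose and none fell past both cut-offs, with a median of 0.30. The sulfotransferase gene Chst12, at -0.90, passed the fold cut-off with libraries at the same total and with quantile normalization (-1.02 and -1.06), so that 3 rose and 1 fell, with medians of 0.18 and 0.14. Csgalnact1, which adds the first galactosamine of a chondroitin chain, was at 45.0, 34.3 and 25.5 normalized counts in controls and at 305.3, 330.3 and 355.8 with dexamethasone. It was higher in every dexamethasone library, with a log2 fold change of 3.24 ± 0.17 (SE, limma, adjusted p = 8.54e-15). The sulfotransferase genes Chst3 and Chst11, which sulfate the galactosamine units, rose by 2.81 and 1.76. The more abundant enzymes had smaller values, 0.53 for the polymerizing factor Chpf, -0.10 for the dermatan epimerase Dse and -0.07 for Csgalnact2.

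Of 10 tested genes for keratan sulfate chains, St3gal1 rose and none fell past both cut-offs, with a median log2 fold change of 0.49. By an adjusted p under 0.05 alone, 7 were higher and 1 lower, where 72.5% of all genes passed in either direction. St3gal1, a sialyltransferase known mainly for capping O-linked glycans, was at 538.9, 566.6 and 545.7 normalized counts in controls and at 4138, 3679 and 4007 with dexamethasone. All dexamethasone libraries were higher, and the gene rose 7.16-fold (limma, adjusted p = 2.68e-24). The galactosyltransferases B4galt1 and B4galt2 had values of 0.83 and 0.47 and St3gal2 of -0.06. Of 10 tested genes that supply sulfate and nucleotide sugars, 1 fell and none rose past both cut-offs, with a median of -0.01. By an adjusted p under 0.05 alone, 4 were lower and 3 higher. Past both cut-offs was Slc26a2, the sulfate transporter of cartilage and bone. It was at 19250 ± 510 normalized counts in controls and 4930 ± 145 with dexamethasone (SD, n = 3). It fell by 1.96 on the log2 scale (limma, adjusted p = 3.24e-24). Ugdh, which makes the glucuronic acid donor, had a value of 0.70 and Gfpt1, the entry enzyme of the hexosamine pathway, -0.44.

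The list of proteases that process or cleave the family's proteins had the lowest median of the 8 lists, -0.69. It also holds Pcolce and Pcolce2, which encode enhancers of procollagen cleavage and not proteases. Of the 12 tested genes of this list, 5 fell and 2 rose past both cut-offs. The aggrecanase gene Adamts5 was at 19069, 18773 and 20076 normalized counts in controls and at 3060, 2838 and 2919 with dexamethasone. The groups were apart, and Adamts5 fell by 2.72 on the log2 scale (limma, adjusted p = 2.44e-26). Adamts4, Tll1, Mmp14 and the gelatinase gene Mmp2 fell by 1.21, 1.55, 1.24 and 1.02, the call of Mmp2 being lost at -0.9995 without control replicate 2 and at -0.987 without dexamethasone replicate 2. Pcolce2, an enhancer of procollagen cleavage, rose by 1.64 and the collagenase gene Mmp13 by 1.45. The more abundant enhancer gene Pcolce had a value of -0.72.

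Of 23 tested collagens, growth factors and receptors that bind the family's proteins, 9 fell and 4 rose past both cut-offs. Their median log2 fold change was -0.15. At the same total 11 fell and 3 rose, and with quantile normalization 9 fell and 2 rose. Bmp4, a bone morphogenetic protein, was at 5583, 6138 and 5907 normalized counts in controls and at 725.9, 657.3 and 675.6 with dexamethasone. Every control library was higher, and Bmp4 fell by 3.10 on the log2 scale (limma, adjusted p = 1.7e-25). Ccn2, the connective tissue growth factor gene, rose from 2663, 2593 and 2503 to 26233, 23698 and 24544 normalized counts, or by 3.26 on the log2 scale (limma, adjusted p = 2.12e-27). Of the chains of type I collagen, the main fibrillar collagen of bone, Col1a1 fell by 1.88 and Col1a2 by 1.05. Fibronectin (Fn1), with a value of -0.15, did not pass the test (limma, adjusted p = 0.0744).

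Of 15 other tested proteoglycan genes outside the family, 5 rose and 2 fell past both cut-offs, with a median log2 fold change of 0.19. This balance depended on the scaling, with 3 rising and 3 falling at the same total (median 0.07) and 4 rising and 3 falling with quantile normalization (median -0.0026). Vcan encodes versican, a large chondroitin sulfate proteoglycan of loose matrix. It was at 4008, 4097 and 4120 normalized counts in controls and at 46047, 44260 and 44780 with dexamethasone. The dexamethasone libraries were all higher, and Vcan rose 11.1-fold (limma, adjusted p = 3.68e-29). The cell surface glypican gene Gpc1 fell by 1.95, from 171336 ± 7545 to 44265 ± 2648 normalized counts (SD, n = 3). Perlecan (Hspg2) and syndecan-3 (Sdc3) had values of -0.11 and -0.57, under the fold cut-off.

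**Figure D4:**
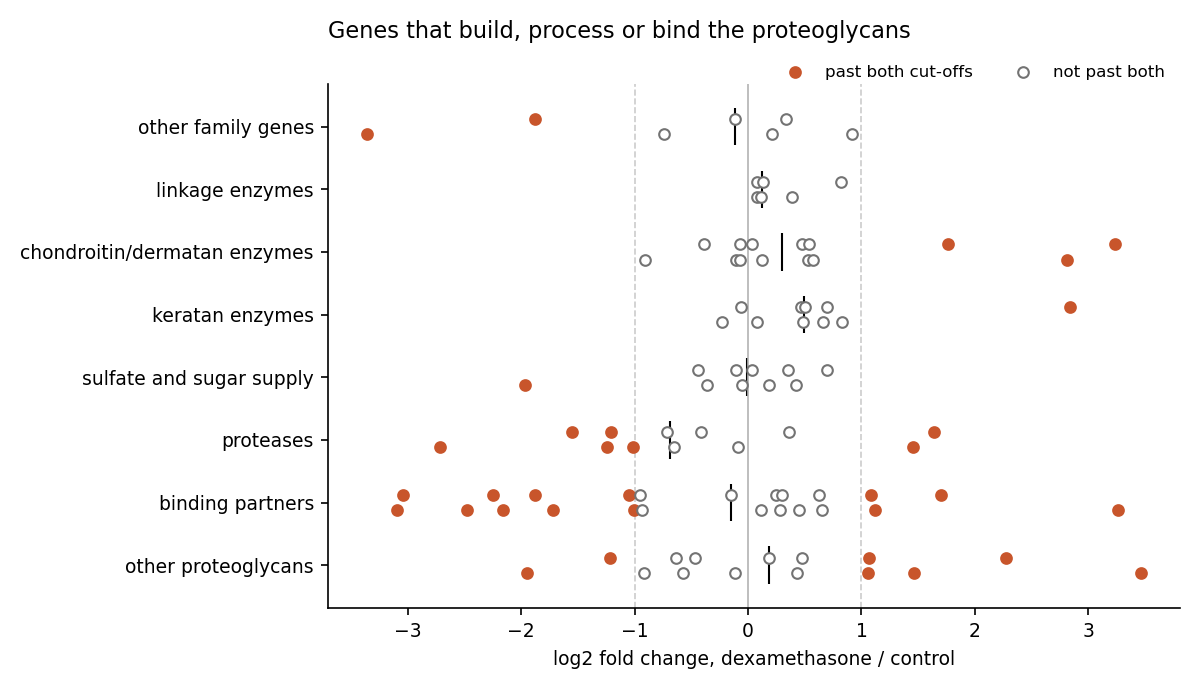
Log2 fold change with dexamethasone of each tested gene in 8 lists of genes that belong to the wider family or build, process or bind its proteins; orange points are past both cut-offs, and black lines mark list medians. The medians run from -0.69 for the proteases, a list that includes Pcolce and Pcolce2, to 0.49 for the keratan enzymes. Orange points lie on both sides of 0 for proteases, binding partners and other proteoglycans.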

How the data were processed

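Total RNA of 6 libraries, 3 control and 3 dexamethasone by the treatment label, was made into stranded mRNA libraries. The authors aligned and counted reads per gene with STAR 2.7.10a on GRCm39 and deposited counts divided by DESeq2 1.36.0 size factors, a normalized signal per gene. The annotation release and strand setting are not given in the sources used here. All deposited values were whole multiples of 1 read (100% within 0.01 reads), so reads were recovered. Symbols, exon lengths and gene order came from GENCODE M21, which uses GRCm38, and 28087 of 29616 identifiers matched a symbol.

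log2(normalized count + 1) of the 17442 genes with a mean of at least 10 was fitted with limma 3.58.1 (lmFit, eBayes with trend; R 4.3.3), with Benjamini-Hochberg adjustment over all of them and cut-offs of 0.05 and a log2 fold change of 1. The fold change is on this log2 scale, so it understates the change of low genes. The fit was run on simulated counts with known changes, as a check of the code and not of the calls made here. In them, far fewer genes changed than were called here, and all genes had the same spread setting. Alternatives were edgeR 4.0.16 and DESeq2 1.42.0 on recovered reads, other scalings, pseudocounts and filters, a replicate block and each library left out. Same-numbered libraries did not deviate together (correlations -0.10, -0.10 and -0.02). Libraries of a group differed by more than counting error. The members and lists were chosen with earlier results of these data known. Besides the members and the other family genes, the text names the 3 tested genes of each list with the highest mean. It also names the called genes of each pathway list with the largest rise and fall, and the called neighbours. Chosen after their values were seen were Chst3, Chst11, Chst12, Adamts4, Tll1, Mmp13, Bglap, Hapln1 and Cd53. So were Cenpp, Nol8, Iars, Btg1 and Eea1, while the other uncalled neighbours were not named. Cdh5 and Ptprc, which were under the filter, and the overlapping gene Gm15851 were named by level or position only. Tek, Bglap2 and Cfd, the last under the filter, were also named after their values were seen and were not followed over the alternatives.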

Additional observations from a re-analysis of the deposited data

How the results depend on the processing

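The 3894 genes called over the whole table became 2170 with a mean of at least 100, 12645 with an adjusted p under 0.05 alone, and 3878 to 3910 with 1 library left out. With a mean of at least 100, 1 other family gene and 3 neighbours were called instead of 2 and 5, since fewer genes were tested, and with no filter 2 keratan genes instead of 1. The replicate block gave 3897 and changed no call of a list or of a gene followed over the alternatives. The 9 members kept a log2 fold change below 0 in all 17 alternatives, Aspn between -6.96 and -6.80, Omd between -6.38 and -6.13, Ogn between -5.81 and -5.66 and Bgn between -0.17 and -0.03.

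Among 1450 values of the 86 tested genes followed over these alternatives, 8 in 5 genes, none of them a member, changed sign. Chad ranged from -0.0285 to 0.515 with 1 library left out and was below 0 without control replicate 3. Egfl7, an endothelial marker, ranged from -0.241 to 0.375 and was at -0.241 without control replicate 1 and -0.193 without dexamethasone replicate 3. Fam20b (-0.0339), Xylt2 (-0.00332) and the blood cell marker S100a9 (-0.0190) were below 0 with libraries at the same total, as were Fam20b (-0.102) and Xylt2 (-0.0376) with quantile normalization. The cause was not tested. Calls were lost for Mmp2 and Btg2 as given above, for Col1a2 at -0.995 with quantile normalization and for Esam, an endothelial marker, at 0.90 with a pseudocount of 8. The muscle marker Tnnt3 was called at 1.12 without control replicate 1 and at 1.22 without dexamethasone replicate 2. Depth limits the values of Optc with dexamethasone, which rest on 5 to 11 reads, more than those of Omd, which rest on 59 to 69.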
